A study of Arabidopsis thaliana with 12 samples.

Results

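The transcript response of ap1/cal seedlings to the nitric oxide (NO) donor sodium nitroprusside (SNP) is described here, by pathway, gene family and function. The comparison rests on 6 libraries, 3 of SNP-treated and 3 of Mock-treated ap1/cal seedlings, out of 12 libraries in the series. Genes were taken into the test when their deposited value reached 10 in at least 3 of the 6 libraries, which 20225 of the 21865 genes listed for ap1/cal did, while 22054 genes are listed for the series as a whole. All seedlings of both groups carried mutations in AP1 and CAL, which encode MADS-box transcription factors that specify floral meristems, and were 7 days after germination. The treated seedlings had been kept for 24 h with 1 mM SNP and the Mock seedlings for the same time without it. The other 6 libraries, of Col-0 wild-type seedlings under the same treatments, were used only to show where the ap1/cal response differed. The material is labelled as whole seedlings, so roots, cotyledons and young leaves were sampled together, and the study's account of the comparison of both genotypes also names seedlings, while its RNA sequencing methods are written for inflorescence apices of ap1/cal, a separate material.

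NO is a small diffusible radical that plants use as a signal. It modifies protein cysteines by S-nitrosylation, is scavenged by phytoglobins, and binds the haem of cytochrome c oxidase, so that electrons can instead pass through the alternative oxidases of the plant mitochondrion. SNP is an iron nitrosyl complex that releases NO and also contains iron and cyanide, so genes for cyanide, sulfur and iron handling are described beside those for NO. The design has SNP as its only donor, so the parts of NO, iron and cyanide cannot be told apart.

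The deposited values were taken to be read counts per gene already divided by a size factor for each library, and are called normalized values here. The estimated reads behind them were 43.1, 27.0 and 23.7 M in SNP replicates 1 to 3, and 36.8, 59.7 and 30.4 M in Mock replicates 1 to 3. On the normalized scale the sum over genes was 44.8 ± 0.723 M in SNP and 27.4 ± 1.75 M in Mock libraries (SD, n = 3 each). Replicates correlated across genes at 0.985 to 0.988 in SNP and 0.99 to 0.995 in Mock on the log2 scale. The mutant genotype could not be checked, since AP1 is not listed and CAL lay below the filter, with values of 7.18, 8.28 and 3.84 in SNP and 2.93, 3.47 and 5.79 in Mock. All 9 root markers and all 5 leaf mesophyll markers passed the filter, against 2 of 6 flower organ markers, so the libraries held RNA of roots and leaves. The root marker WOX5 passed it through the SNP libraries alone. The study calls the 3 replicates of a condition biological, without saying which plants or cultures each came from, and p-values measure the spread between these libraries.

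SNP altered the level of most genes. Calls were made with limma on log2(value + 1), a scale on which the fold of low genes is understated, where the Benjamini-Hochberg adjusted p lay under 0.05 and the change reached 1.5-fold. By this rule 12741 genes were called, which is 63% of those tested, with 6082 higher (30.1%) and 6659 lower (32.9%) in SNP. The median log2 fold change over all tested genes was -0.035, and the middle of the distribution ran from -0.957 to 0.793 between the quartiles. At least 4-fold changes were reached by 1833 genes upwards and 2106 downwards, at least 16-fold by 522 and 391, and at least 64-fold by 152 and 63. SNP and Mock libraries did not overlap for 82.9% of the tested genes. Because the summed signal differed between the groups, the balance of rises and falls depended on the scaling. With each library divided by its summed signal the median moved to -0.741, and the calls split into 3078 higher and 10947 lower. Folds below keep the deposited scaling, and a list is said to turn where its median changes sign under that other scaling.

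The genes with the largest changes fell into a few recognisable groups. Beside small heat shock protein genes and the transporter gene ABCG40, the genes with the largest rises were HRE2, AOX1D, HSP70b, AT1G71000, AT5G05220 and ELI3-2. HRE2 (AT2G47520), an ethylene response factor of the hypoxia response, had normalized values of 8396, 9129 and 9584 in SNP libraries, against 4.4, 0.868 and 0.965 in Mock libraries. It was thus close to silent without SNP, and its log2 fold change was 11.70 ± 0.356 (SE, adjusted p = 5.6e-09 in limma). AOX1D (AT1G32350), an alternative oxidase, had 3096, 4102 and 4483 in SNP, against 0.733, 0.434 and 1.93 in Mock. Since the Mock libraries held no more than 3 estimated reads each, this is a rise of at least 1827-fold. ELI3-2 (AT4G37990), annotated as a cinnamyl alcohol dehydrogenase, was at least 905-fold higher by the same floor, with 1819, 2003 and 1966 in SNP and 0, 0.434 and 1.93 in Mock. AT1G71000, which encodes a protein of the DnaJ co-chaperone family, had a log2 fold change of 10.73 and AT5G05220, for which no role is given in the annotation, one of 10.27.

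The largest falls were led by genes of cell walls and root hairs. AT5G62360, a pectin methylesterase inhibitor family gene, had 9.23, 3.31 and 7.68 in SNP, against 1901, 1779 and 2236 in Mock. Its log2 fold change was -8.08 ± 0.292 (SE, adjusted p = 1.6e-08), and the groups did not overlap. RHS13 and RHS12, named as root hair specific genes, had log2 fold changes of -7.46 and -7.32, the second of them at least 66.8-fold lower by the floor of 3 reads. The extensin genes EXT13 and EXT12, the leucine-rich repeat extensin gene LRX1, the proline-rich protein gene PRP3, the pectinesterase family gene AT5G04960 and the auxin-induced gene AT4G38860 of the SAUR family fell by 6.63 to 7.31 on the log2 scale. Among the other large falls, the receptor kinase genes AT2G28960 and AT5G49770 were at least 88.8-fold and 43-fold lower, and the iron transporter gene IRT2 at least 41.9-fold lower. IRT2 had 1.03, 3.31 and 0 in SNP libraries, against 208.6, 210.6 and 159.2 in Mock libraries.

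**Figure D1:**
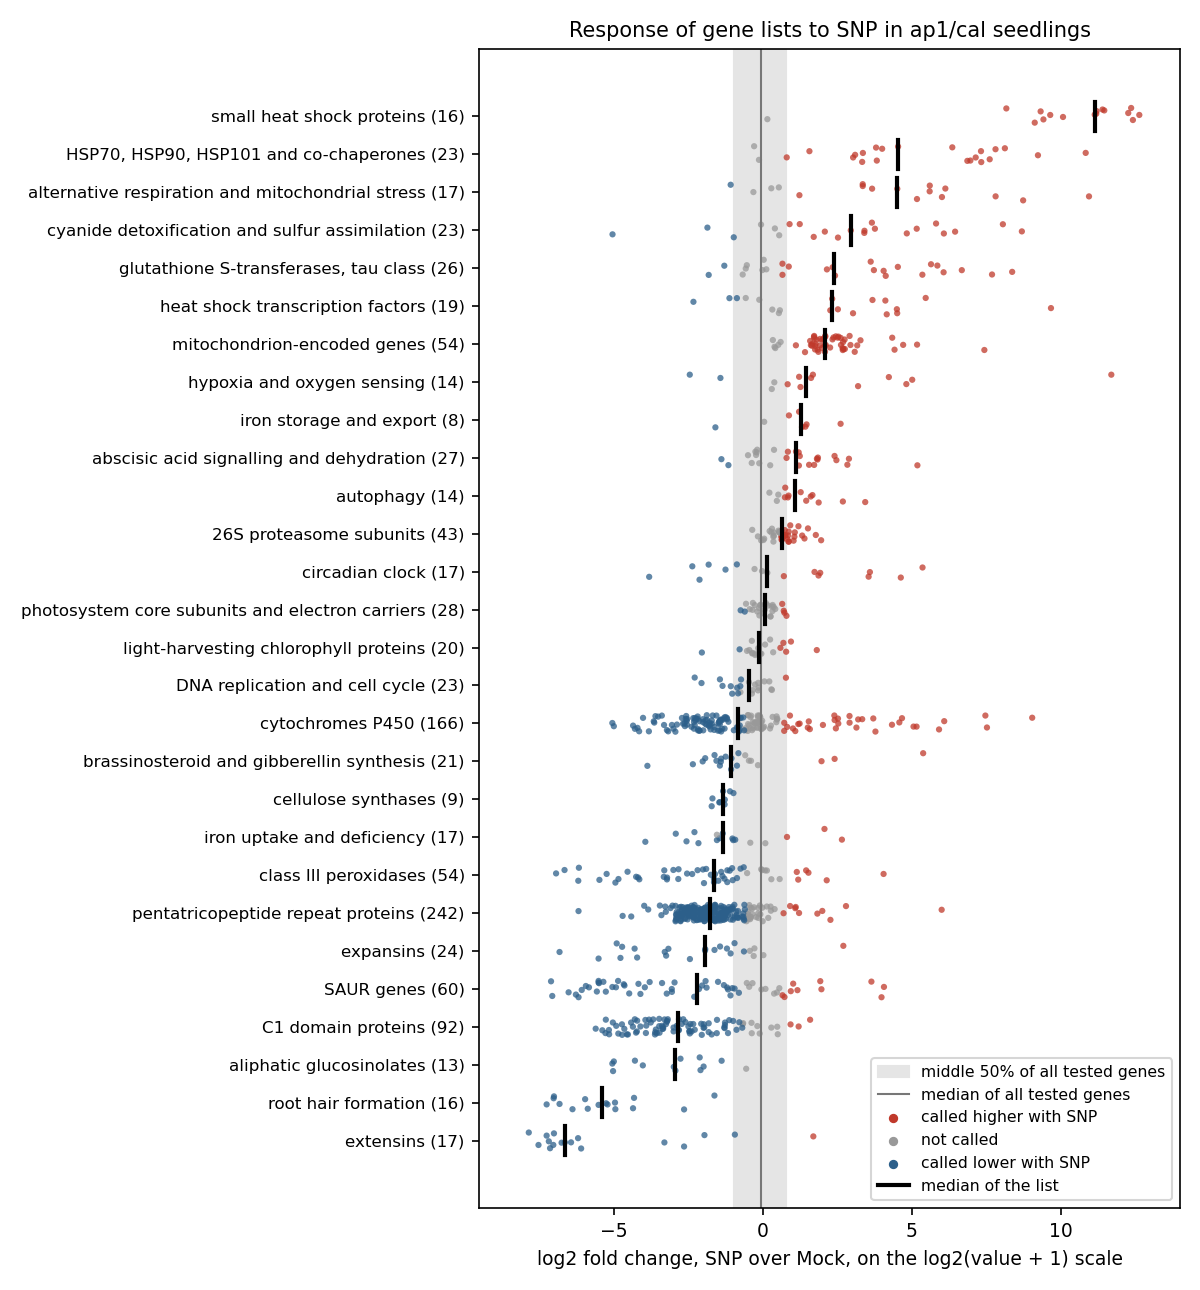
Log2 fold change of SNP over Mock (x axis, on the log2(value + 1) scale) for each tested member of 28 gene lists, with the number of members in brackets. Red points were called higher, blue points lower and grey points were not called. The black bar is the median of the list, from 11.17 in small heat shock proteins to -6.63 in extensins, and the grey band spans the quartiles of all tested genes from -0.957 to 0.793. With each library divided by its summed signal the medians of the 26S proteasome, circadian clock and photosystem lists turn to -0.059, -0.549 and -0.621.

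Heat shock proteins are chaperones that hold or refold damaged proteins, and their genes are switched on by heat shock transcription factors that bind heat shock elements in the DNA. Of 16 small heat shock protein genes tested, 15 rose and 0 fell, with a median log2 fold change of 11.17 against -0.035 over all genes. AT1G53540 had 92448, 115750 and 87390 in SNP, against 42.5, 19.5 and 51.1 in Mock, a log2 fold change of 11.41 ± 0.296 (SE, adjusted p = 2.3e-09). HSP21, whose product works in the chloroplast, had 11000, 15172 and 10302 in SNP, against 4.4, 2.17 and 6.75 in Mock. Every SNP library thus exceeded every Mock library by more than 3 orders of magnitude for both genes. Together the list held 2.25 to 2.83% of the signal of an SNP library, against 0.00814 to 0.00918% of a Mock library. The exception was AT4G21870, whose log2 fold change was 0.16 and which was not called.

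The larger chaperones rose as a group too, though less evenly. Of 23 genes for HSP70, HSP90, HSP101 and their co-chaperones 21 rose and 0 fell, with a median of 4.55, and they held 3.93 to 4.82% of the signal in SNP libraries, against 0.259 to 0.297% in Mock libraries. HSP101 (AT1G74310), the disaggregase needed for acquired thermotolerance, had 202645, 259407 and 230386 in SNP, against 397.1, 357.7 and 381.0 in Mock. Its log2 fold change was 9.24 ± 0.099 (SE, adjusted p = 7.2e-11). HSP101 overlaps another gene in the annotation, and whether counting used the strand is not stated. HSP70b rose by 10.84 on the log2 scale, the inducible HSP90.1 by 7.82, the co-chaperones BAG6 and ROF2 by 7.34 and 7.33, and the mitochondrial CLPB4 by 6.37. Members that every cell uses moved less. HSC70-1 had a log2 fold change of 0.81, while HSP90.4 and HOP1 had -0.12 and -0.28 and were not called.

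**Figure D2:**
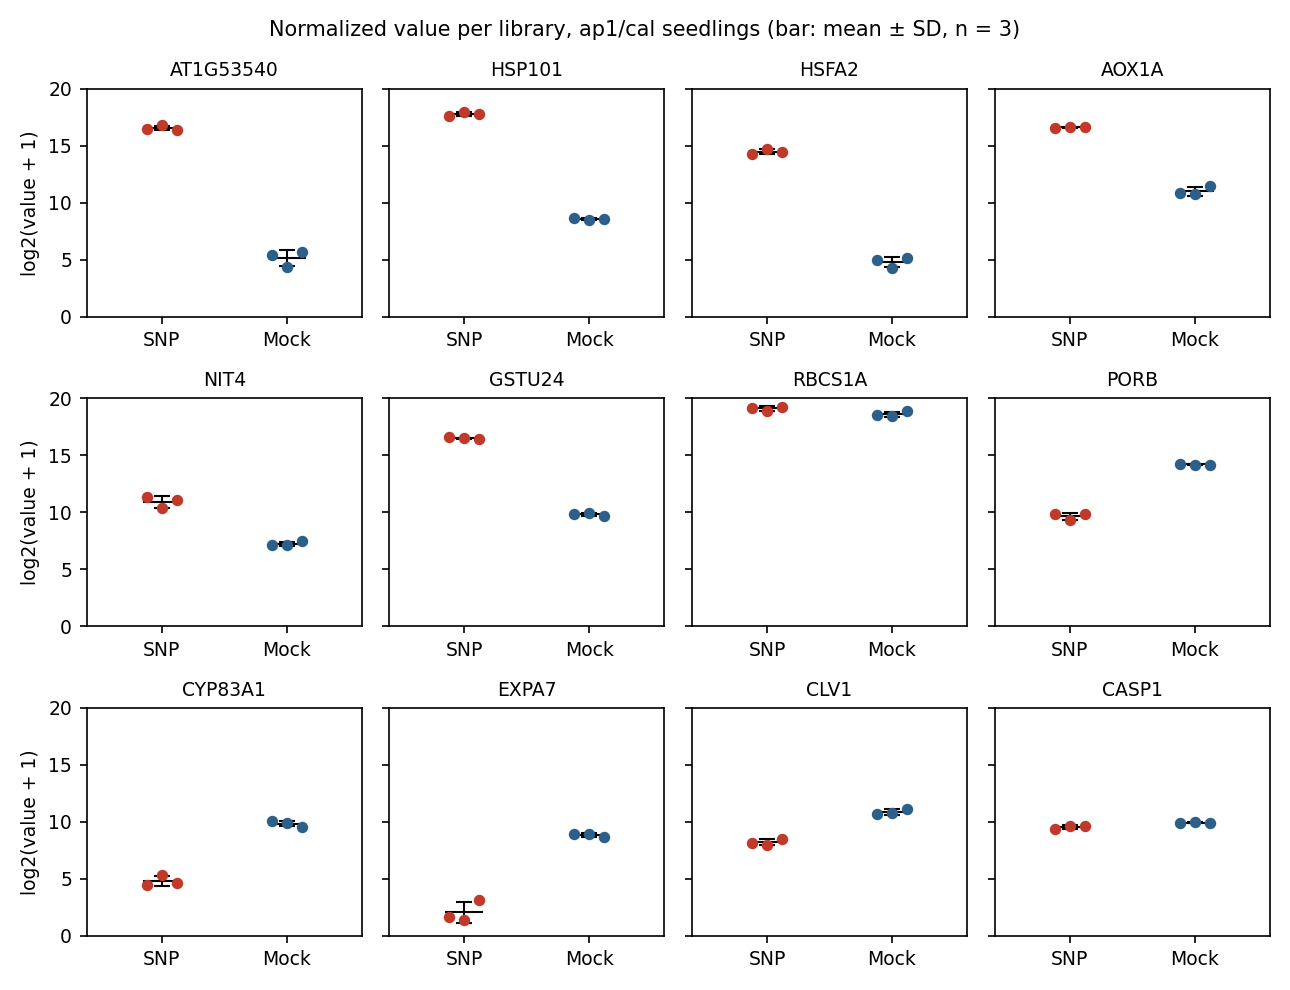
Normalized value of 12 genes in each library, as log2(value + 1) on a common axis, with SNP libraries in red on the left of each panel and Mock libraries in blue on the right. Horizontal ticks and bars give the mean ± SD of 3 libraries. The SNP and Mock libraries do not overlap in any panel, and the distance between them runs from 11.41 for AT1G53540 to 0.53 for RBCS1A and -0.36 for CASP1, which were not called.

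Heat shock transcription factors themselves were divided. Of 19 tested, 11 rose and 3 fell, with a median of 2.34. HSFA2 (AT2G26150), which prolongs the heat response, had 20028, 27600 and 22082 in SNP, against 29.8, 18.7 and 35.6 in Mock, a log2 fold change of 9.68 ± 0.212 (SE, adjusted p = 9.0e-10). HSFA7B followed at 5.47 and HSFB2A, a member of the class that can repress transcription, at 4.52. Among the class A1 factors, which start the heat response in Arabidopsis, HSFA1E and HSFA1D rose by 3.04 and 2.53, HSFA1A was not called at -0.11, and HSFA1B, which overlaps another gene, had -0.86. HSFA6B had the largest fall of the list at -2.32. The letters of the heat shock element, counted here as GAA, TTC and GAA or TTC, GAA and TTC, each 2 bases apart on either strand, stood within 250 bases before the gene start in 0.438% of all 20089 tested genes with such a stretch. They did so in 2 of 16 small heat shock protein genes and 3 of 19 heat shock factor genes. The following stretches show these letters in capitals upstream of a chaperone gene and of the factor genes with the highest folds, HSFA2 and HSFA7B, while HSFA7A, the third factor gene with a match, rose by 2.34. They are written 5′ to 3′ on the strand of the gene, from TAIR10.1 as distributed by RefSeq: AT1G53540 at chr1:19980231-19980273 on the plus strand, HSFA2 at chr2:11135521-11135563 on the plus strand and HSFA7B at chr3:23399064-23399106 on the plus strand.
AT1G53540: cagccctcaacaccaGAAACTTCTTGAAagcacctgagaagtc
HSFA2: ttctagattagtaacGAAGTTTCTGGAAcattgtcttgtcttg
HSFA7B: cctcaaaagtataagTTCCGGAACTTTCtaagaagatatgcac

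Misfolded proteins in the endoplasmic reticulum trigger the unfolded protein response. Of 20 genes of this response 5 rose, 8 fell and 7 were not called, with a median of -0.13. BZIP60 (AT1G42990), the transcription factor activated by unconventional splicing, had 8706, 8401 and 9321 in SNP, against 765.6, 680.7 and 928.8 in Mock, a log2 fold change of 3.49 ± 0.109 (SE, adjusted p = 6.7e-09). BZIP28, which is released from the membrane by proteolysis, rose by 1.85 and the inducible lumenal HSP70 gene BIP3 by 1.76. The 8 that fell encode folding proteins of the lumen or membrane. CNX1 (calnexin) had a log2 fold change of -1.92, the calreticulin genes CRT1 (AT1G56340) and CRT1b -1.62 and -1.60, ERDJ3B -1.69, BIP2, which shares sequence with another gene, -1.43, HSP90.7 -1.21 and the protein disulfide isomerases PDIL1-2 and PDIL1-1 -1.37 and -1.04.

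Genes for alternative respiration and mitochondrial stress formed another strongly raised group. Plant mitochondria can bypass the cytochrome pathway through type II NAD(P)H dehydrogenases and alternative oxidases, and their genes respond to signals from the disturbed organelle through NAC factors held at the endoplasmic reticulum. Of 17 genes tested 13 rose and 1 fell, with a median of 4.52, and they held 0.776 to 0.866% of the signal in SNP libraries, against 0.029 to 0.0343% in Mock libraries. AOX1A (AT3G22370), the main alternative oxidase, had 95793, 102708 and 104257 in SNP, against 1827, 1729 and 2775 in Mock, a log2 fold change of 5.61 ± 0.164 (SE, adjusted p = 4.4e-09). The dehydrogenase genes NDB2, NDA2, NDA1 and NDB4 rose by 4.52, 3.68, 3.36 and 3.36. UGT74E2 (AT1G05680), a glycosyltransferase acting on indole-3-butyric acid, had 136416, 152977 and 131887 in SNP, against 291.6, 252.7 and 468.8 in Mock. Its groups were therefore far apart, with a log2 fold change of 8.75 ± 0.197. Of the regulators, NAC13 rose by 6.13 with an overlapping gene in the annotation, while NAC017 had -0.31 and was not called, and AOX1C fell by 1.07 on the log2 scale. The mitochondrial dysfunction motif, counted here as CTTG and CAAG or CACG 5 bases apart on either strand, stood within 250 bases before the start of 5 of these 17 genes, against 0.956% of all 20089 stretches. It is shown in capitals for 3 raised genes and for NAC017, on the strand of each gene in TAIR10.1: AT2G21640 at chr2:9254312-9254354 on the plus strand, NDB2 at chr4:2572333-2572375 on the plus strand, NDA1 at chr1:2204019-2204061 on the plus strand and NAC017 at chr1:12451280-12451322 on the plus strand.
AT2G21640: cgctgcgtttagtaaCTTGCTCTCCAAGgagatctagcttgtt
NDB2: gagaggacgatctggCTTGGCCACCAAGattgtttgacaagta
NDA1: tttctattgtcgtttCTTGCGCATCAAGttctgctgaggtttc
NAC017: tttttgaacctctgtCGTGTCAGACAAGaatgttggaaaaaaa
AT2G21640, NDB2 and NDA1 had log2 fold changes of 7.82, 4.52 and 3.36, and NAC017 with the same kind of letters was not called. NDB3, the remaining gene with a match, had 1.24. The 4 genes shown were picked by their response and 13 of all 17 genes rose, so these matches do not link the motif to a rise.

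Most glutathione S-transferase genes were higher in SNP. Glutathione S-transferases conjugate reactive compounds to glutathione, and of 26 tau class genes 18 rose and 2 fell (median 2.39), while of 13 phi class genes 9 rose and 3 fell (median 1.87). The tau class held 1.31 to 1.4% of the signal in SNP libraries, against 0.141 to 0.153% in Mock libraries. GSTU19 (AT1G78380), one of the most abundant transcripts per length in SNP, had 307786, 337369 and 315563 in SNP, against 22580, 23351 and 26207 in Mock, a log2 fold change of 3.74 ± 0.136 (SE, adjusted p = 1.7e-08). GSTU24 (AT1G17170) had 97886, 92137 and 89548 in SNP, against 940.7, 985.0 and 794.8 in Mock, a log2 fold change of 6.69 ± 0.094 (adjusted p = 1.1e-10). GSTU3 was at least 192-fold higher, and GSTF6 and GSTF7 rose by 6.23 and 5.08. OPR1 (AT1G76680), a 12-oxophytodienoate reductase that acts on reactive cyclopentenones outside jasmonate synthesis, had 325567, 332404 and 316448 in SNP, against 5941, 6417 and 7610 in Mock. With a log2 fold change of 5.62 ± 0.123 it was among the 10 genes with the highest value per kb in SNP libraries, although some of its length overlaps or resembles other genes.

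Families with more varied substrates were divided. Of 56 UDP-glycosyltransferase genes 28 rose and 15 fell with a median of 0.67, which turns to -0.037 with each library divided by its summed signal. UGT73C1 and UGT85A1 rose by 5.75 and 5.51, while UGT72E2, which glucosylates monolignols, and UGT72B3 had -4.57 and -4.23. Of 166 cytochrome P450 genes 34 rose and 91 fell (median -0.83), yet the family's share of the signal was 0.861 to 0.887% in SNP libraries, against 0.418 to 0.462% in Mock libraries. The member with the highest value in SNP was among those raised. CYP81D8 (AT4G37370) had 103533, 108451 and 115016 in SNP, against 151.6, 158.9 and 354.9 in Mock, a log2 fold change of 9.05 ± 0.276 (SE, adjusted p = 5.8e-09). CYP76C2 and CYP89A6 rose by 7.48 and 6.10, whereas the fatty acid hydroxylase gene of suberin, CYP86A1, had -4.14 and the cytokinin hydroxylase gene CYP735A2 -3.81. Of 36 genes for ABCG transporters 9 rose and 19 fell, and below ABCG40 the rises reached 2.90 for ABCG27 and 2.296 for ABCG16. ABCG2, ABCG6 and ABCG20 are needed for suberin, and of these ABCG20 rose by 1.22 whereas ABCG6 fell by 2.45 on the log2 scale. ABCG2 had -3.24 but shares most of its sequence with other genes.

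**Figure D3:**
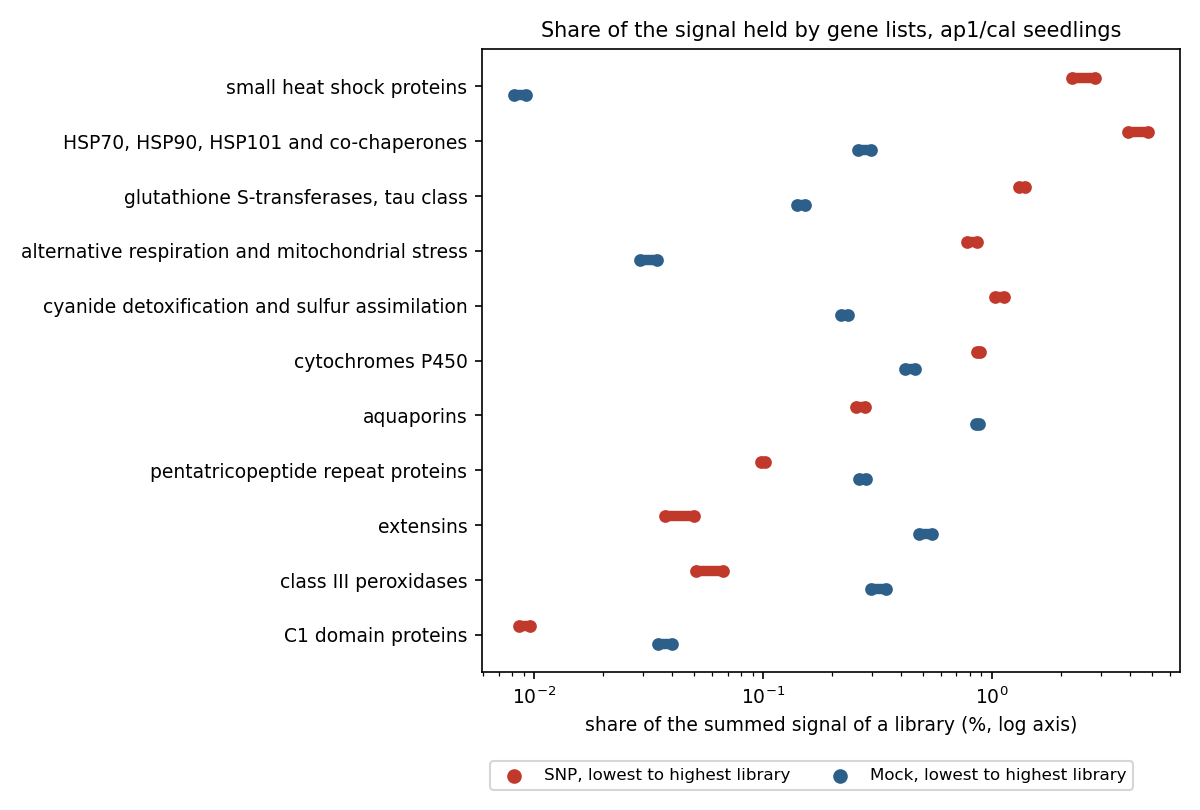
Share of the summed signal of a library (percent, log axis) held by 11 gene lists. Each bar runs from the lowest to the highest of 3 libraries, SNP in red above Mock in blue. Small heat shock proteins held 2.25 to 2.83% in SNP, against 0.00814 to 0.00918% in Mock, and extensins 0.0374 to 0.05% in SNP, against 0.48 to 0.549% in Mock. In no list do the ranges overlap.

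Most genes of a list for sulfur assimilation and cyanide detoxification were higher in SNP. Plants reduce sulfate through ATP sulfurylase, APS reductase and sulfite reductase, detoxify cyanide with cysteine through beta-cyanoalanine synthase and nitrilase, and raise a set of sulfur deficiency genes when sulfur is short. Of 23 genes tested 17 rose and 3 fell, with a median of 2.96, and their share of the signal was 1.03 to 1.13% in SNP libraries, against 0.219 to 0.236% in Mock libraries. LSU1 (AT3G49580), a marker of low sulfur, had 33774, 36746 and 35622 in SNP, against 134.7, 162.2 and 102.9 in Mock, a log2 fold change of 8.06 ± 0.142 (SE, adjusted p = 2.8e-10). The further deficiency genes BGLU28, LSU2 and SDI1 rose by 8.70, 6.46 and 6.08, and GGCT2;1, which degrades glutathione, by 5.82. APR3 and APR1, for APS reductase, rose by 5.17 and 4.84 with overlapping genes in the annotation, the sulfite reductase gene SIR by 1.72 and the first gene of glutathione synthesis, GSH1, by 0.91. NIT4 (AT5G22300), the beta-cyanoalanine nitrilase, had 2626, 1318 and 2143 in SNP, against 140.6, 143.2 and 175.6 in Mock, a log2 fold change of 3.67 ± 0.222 (adjusted p = 4.6e-07). CYSC1, for beta-cyanoalanine synthase, had 0.56 and was not called. The sulfate transporters of the root differed, since SULTR1;2 rose by 2.53 and SULTR1;1 was at least 14.6-fold lower.

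Iron storage genes were higher and most iron uptake genes lower. Ferritins store iron in plastids, and of 8 genes for storage and export 6 rose and 1 fell (median 1.28). FER1 (AT5G01600) had 23191, 17079 and 19817 in SNP, against 2930, 2806 and 4108 in Mock, a log2 fold change of 2.62 ± 0.159 (SE, adjusted p = 4.6e-07). Roots take up iron by acidifying the soil, reducing ferric iron with FRO2 and importing it through IRT1, and of 17 genes of uptake and deficiency 3 rose and 11 fell (median -1.33). FRO2 (AT1G01580) had 13.5, 10.8 and 9.74 in SNP, against 150.2, 252.9 and 169.4 in Mock, a log2 fold change of -3.93 ± 0.243 (adjusted p = 5.3e-07). IRT1 had -2.55, the proton pump gene AHA2 -2.15 and the regulators FRU and BHLH39 -0.98 and -1.01. The 3 that rose do not take up iron. They were PYE and BTS, which restrain the deficiency response, at 2.66 and 2.08, and ILR3, a partner of PYE, at 0.82. On the storage side the vacuolar transporter gene VTL5 fell by 1.58 on the log2 scale.

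Genes linked directly to NO and nitrate showed no common direction. Of 16 tested 7 rose and 4 fell, with a median of 0.22 that turns to -0.486 with each library divided by its summed signal. HB1 (AT2G16060), the phytoglobin that scavenges NO, had 1686, 1658 and 1716 in SNP, against 40.3, 39.9 and 65.6 in Mock, a log2 fold change of 5.13 ± 0.179 (SE, adjusted p = 1.3e-08). SNP libraries were narrowly spaced and all above Mock libraries. Of the genes the study names for NO biosynthesis, NIA2 rose by 1.21 and NIA1 had -0.50 and was not called. NOA1, which overlaps another gene, had -0.61 and was called lower. NLP7, the nitrate sensor and master regulator, rose by 2.17, while the nitrite reductase gene NIR1 and the nitrate transporter gene NRT1.1 had 0.04 and -0.49 and were not called. NRT2.1, for high-affinity nitrate uptake, was at least 10.5-fold lower, and the nitrate-inducible repressors LBD38 and LBD39 had -1.21 and -2.45, whereas LBD37 of the same group rose by 1.34.

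Low-oxygen genes, several of which are controlled through the NO-sensitive degradation of group VII ethylene response factors, were mostly higher, with 10 of 14 raised, 2 lower and a median of 1.45. PDC1 (AT4G33070), pyruvate decarboxylase, had 4499, 5366 and 5146 in SNP, against 145.8, 165.0 and 147.6 in Mock, a log2 fold change of 5.02 ± 0.089 (SE, adjusted p = 2.9e-10). LBD41, the oxygen sensor gene PCO1 and the alcohol dehydrogenase gene ADH1, which overlaps another gene, rose by 4.83, 4.24 and 3.21. The constitutive factors moved little. RAP2.12, which shares sequence with another gene, and RAP2.3 had 0.31 and 0.40 and were not called, and RAP2.2 had 0.84. HRA1, which antagonises RAP2.12, and the sucrose synthase gene SUS4 fell by 2.44 and 1.41 on the log2 scale.

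Antioxidant enzymes were divided by isoform. Of 17 tested 10 rose and 2 fell, with a median of 0.97. APX2 (AT3G09640), the heat- and light-inducible cytosolic ascorbate peroxidase, had 1696, 3122 and 2090 in SNP, against 0, 3.04 and 1.93 in Mock, a log2 fold change of 9.94 ± 0.470 (SE, adjusted p = 9.1e-08). The constitutive APX1 rose by 2.53 and the glutaredoxin gene GRX480 by 5.85, while the chloroplast forms TAPX and SAPX had 0.18 and -0.31 and were not called. The catalases went in opposite directions. CAT2 (AT4G35090), of photorespiring leaves, had 87970, 92671 and 95245 in SNP, against 25031, 21631 and 27534 in Mock, whereas CAT3 (AT1G20620) had 7473, 7399 and 6641 in SNP, against 26636, 28411 and 28777 in Mock. Their log2 fold changes were 1.90 ± 0.124 and -1.96 ± 0.083 (SE, adjusted p = 7.5e-07 and 4.4e-08), and CAT2 overlaps another gene, as CSD1 does. The copper-zinc superoxide dismutase gene CSD1 and the iron form FSD1 rose by 1.23 and 1.08, and FSD3 of the chloroplast nucleoid fell by 1.11 on the log2 scale.

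The photosynthetic machinery stayed abundant under SNP. Of 28 nuclear genes for photosystem core subunits and electron carriers 4 rose and 2 fell, and of 20 light-harvesting genes 5 rose and 2 fell, so that 25% of the light-harvesting genes were higher and 10% lower, against 30.1 and 32.9% of all genes. Their medians were 0.09 and -0.12, and the photosystem median turns to -0.621 with each library divided by its summed signal. RBCS1A, for the small subunit of Rubisco, was the most abundant gene per length in SNP and had 602685, 495545 and 630381 in SNP, against 372756, 353456 and 479652 in Mock. The libraries did not overlap, but its log2 fold change of 0.53 ± 0.279 was not called (SE, adjusted p = 0.111). Of 15 carbon fixation genes 5 rose and 3 fell, with a median of 0.38 that turns to -0.336 under the same scaling. The light-harvesting genes held 5.05 to 5.42% of the signal in SNP libraries, against 9.01 to 9.75% in Mock libraries. Single members stood out, with LHCB1.4 at -2.04, LHCB4.3 at 1.82, the transketolase gene TKL1 at -1.33 and RBCS1B at -1.38.

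Chlorophyll metabolism changed more than the proteins that bind it. Of 11 genes for chlorophyll synthesis and its regulators 0 rose and 7 fell (median -0.90). PORB (AT4G27440), a light-dependent protochlorophyllide reductase, had 902.1, 629.6 and 913.7 in SNP, against 19486, 18616 and 18698 in Mock, a log2 fold change of -4.56 ± 0.133 (SE, adjusted p = 4.3e-09), and it overlaps another gene. GLK2 (AT5G44190), a transcription factor for chloroplast development, had 438.0, 339.5 and 407.2 in SNP, against 3707, 3203 and 3487 in Mock, and its paralogue GLK1 fell by 1.496 on the log2 scale. For GLK2 the groups were clearly apart at -3.14 ± 0.103. Of 16 genes for chlorophyll breakdown and senescence 9 rose and 1 fell (median 1.195). NYE1 (AT4G22920), which dechelates magnesium from chlorophyll, had 2940, 2681 and 3100 in SNP, against 298.5, 294.5 and 345.6 in Mock, a log2 fold change of 3.21 ± 0.089. The pheophytinase gene PPH and the senescence regulator NAP rose by 1.51 and 3.46, SAG13 was at least 114-fold higher, and NYC1, for chlorophyll b reductase, had -0.70. Of 14 autophagy genes 11 rose and 0 fell (median 1.08), led by the ubiquitin-like ATG8H and ATG8E at 3.45 and 2.70.

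Transcripts of the organelles were measured through poly(A) selection, which captures few of them, and their genes overlap or adjoin each other in the annotation. Within that limit, 49 of 54 tested mitochondrion-encoded genes rose and 0 fell, and 47 were called higher with each library divided by its summed signal. Of 81 chloroplast-encoded genes 28 rose and 1 fell (median 0.80, or 0.094 with that scaling, where 6 were higher and 10 lower). This count rested on single libraries. Chloroplast-encoded genes summed to 629646, 1087860 and 1206946 in SNP libraries, against 503070, 398533 and 1011401 in Mock libraries, with Mock replicate 3 the highest Mock library for 76 of the 81. The groups overlapped for 14 of the 28 called higher. Without SNP replicate 1, 2 or 3 the count of rises was 50, 15 or 16, and without Mock replicate 1, 2 or 3 it was 16, 15 or 55. The mitochondrion-encoded genes summed to 22417, 43198 and 47790 in SNP libraries, against 5533, 5467 and 13471 in Mock libraries, and 49 or 50 rose whichever library was left out. The chloroplast genes' share of the signal overlapped between the groups, with 1.43 to 2.65% in SNP libraries and 1.54 to 3.45% in Mock libraries, whereas the mitochondrial share was 0.051 to 0.105% in SNP and 0.0207 to 0.0461% in Mock.

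Root hair genes fell without exception. Root hairs are tubular outgrowths of epidermal cells, specified by RHD6 and RSL transcription factors and extended by wall-loosening proteins and the NADPH oxidase RHD2. All 16 tested genes of this list were lower (32.9% of all genes were), with a median log2 fold change of -5.38, and together they held 0.000513 to 0.00083% of the signal in SNP libraries, against 0.022 to 0.0272% in Mock libraries. RHD6 (AT1G66470) had 3.08, 1.66 and 0 in SNP, against 46.2, 57.7 and 31.8 in Mock, a log2 fold change of -4.35 ± 0.536 (SE, adjusted p = 5.8e-05). Its targets RSL4 and RSL2 were lower too, RSL4 with a log2 fold change of -4.31 and RSL2 by at least 35.8-fold. RHD6 and RSL4 had about 3 estimated reads or fewer in every SNP library, so their folds lie at the floor. EXPA7 (AT1G12560), a hair-specific expansin that overlaps another gene, had 2.05, 1.66 and 7.68 in SNP, against 499.6, 480.6 and 411.9 in Mock, a log2 fold change of -6.81 ± 0.408 (adjusted p = 4.3e-07). RHD2 had the smallest fall, at -1.61. In whole seedlings fewer cells of a type and less RNA per cell cannot be told apart. The 9 root markers all moved less than the median of this list, and 1 rose, 4 fell and 4 were not called. CASP1, which overlaps another gene, and MYB36 of the endodermis had log2 fold changes of -0.36 and -0.06 and were not called, which need not hold for other endodermal genes. The radial patterning genes SHR and SCR had -1.88 and -1.87. The quiescent centre gene WOX5 rose by 2.13, with 34.9, 39.8 and 34.6 in SNP, against 6.59, 9.55 and 6.75 in Mock. It thus passed the filter through the SNP libraries alone. BGLU23 (AT3G09260), an abundant glucosidase of endoplasmic reticulum bodies, had 11492, 10880 and 13510 in SNP, against 120339, 123123 and 115236 in Mock. Its log2 fold change was -3.33, and it overlaps another gene. The 9 root markers together summed to 13418 to 16152 in SNP libraries, against 119835 to 127625 in Mock libraries, most of it BGLU23, and the part of root tissue in the falls was not tested.

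Most gene families that build or loosen the cell wall were lower. Of 17 extensin genes 16 fell and 1 rose (median -6.63), of 24 expansin genes 19 fell and 1 rose (median -1.93), and of 54 class III peroxidase genes 41 fell and 6 rose (median -1.63). EXPA8 (AT2G40610) had 65.6, 66.3 and 82.5 in SNP, against 2424, 1955 and 2069 in Mock, a log2 fold change of -4.89 ± 0.123 (SE, adjusted p = 1.8e-09). EXPA16 (AT3G55500) was the expansin that rose, with 556.6, 695.8 and 835.0 in SNP, against 89.4, 99.4 and 126.4 in Mock. Xyloglucan endotransglucosylases, which cut and rejoin wall polymers, were divided, with 15 of 29 lower and 6 higher, from XTH13, at least 16.4-fold lower, to XTH18 at 3.61 and XTH23 at 3.24. All 9 tested cellulose synthase genes were lower, within a narrow range of -0.97 to -1.71 that covers those of primary walls (CESA1, CESA3 and CESA6) and of secondary walls (CESA4, CESA7 and CESA8), of which all but CESA6 overlap another gene. These falls depended in part on gene length. With the trend on gene length and GC content removed, their median moved from -1.32 to -0.85, and CESA6, at -0.49, fell short of 1.5-fold. Laccases, which polymerise lignin, followed with 14 of 15 lower (median -2.54). LAC7 (AT3G09220) had 424.5, 289.0 and 499.1 in SNP, against 3811, 3746 and 4195 in Mock. Of 16 genes for 3-ketoacyl-CoA synthases, which lengthen the fatty acids of waxes and suberin, 13 fell and 1 rose (median -1.498). Of 29 aquaporin genes, whose products let water cross membranes, 18 fell and 5 rose (median -0.98), with NIP3;1 at -3.85, PIP2;4 at -3.06 and SIP1;2 as the largest rise at 4.65.

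Growth hormone genes were mostly lower. SAUR genes are early auxin targets that promote cell expansion, and of 60 tested 42 fell and 10 rose (median -2.21). SAUR24 (AT5G18080) was at 0 in all SNP libraries, against 138.5, 135.4 and 122.5 in Mock, which is at least 28.7-fold lower by the floor of 3 reads per library. SAUR19, SAUR20, SAUR22 and SAUR29 were at least 21.3-fold, 30.1-fold, 19.8-fold and 20.7-fold lower, and SAUR9 rose by 3.99. Of 25 Aux/IAA repressor genes 11 fell and 6 rose, from IAA29 at -3.04 to IAA30 at 2.92, and of 12 auxin response factor genes 10 fell and 0 rose (median -1.71), with ARF16 and ARF10 lowest at -2.92 and -2.73. Brassinosteroids and gibberellins promote elongation, and of 21 genes for their synthesis and inactivation 14 fell and 3 rose (median -1.06). The gibberellin synthesis gene GA20OX1 was at least 5.02-fold lower and GA3OX2 had -2.34, while GA2OX6 (AT1G02400), whose product inactivates gibberellins, had 7718, 5891 and 6881 in SNP, against 183.9, 151.5 and 149.5 in Mock. Its log2 fold change was 5.39 ± 0.117 (SE, adjusted p = 8.6e-10). The brassinosteroid genes DWF4, BR6OX2 and CYP90D1 had -0.86, -1.40 and -1.61.

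Stress hormone genes were raised in part. Abscisic acid is perceived by PYL receptors that inhibit clade A protein phosphatases, and of 27 genes of this pathway and of dehydration 16 rose and 2 fell (median 1.12). ABI2 (AT5G57050), such a phosphatase, had 5465, 5176 and 5639 in SNP, against 155.4, 138.5 and 147.3 in Mock, a log2 fold change of 5.20 ± 0.074 (SE, adjusted p = 1.1e-10). HAI1 and HAI2 of the same family rose by 2.85 and 2.42, the receptor gene PYL5 by 2.48 and the protective protein gene COR15A by 2.90, whereas the synthesis gene NCED3 fell by 1.38 on the log2 scale. Of 24 jasmonate genes 10 rose and 4 fell, with a median of 0.38 that turns to -0.323 with each library divided by its summed signal. AOC1 and the repressor genes JAZ1, JAZ6 and JAZ5 rose by 4.67, 2.56, 2.45 and 2.11, while JAZ4 and JAZ7 had -4.20 and -2.999. Of 13 salicylic acid genes 5 rose and 3 fell, with a median of 0.014, too small for its sign to be independent of the scaling. The receptor genes NPR4 and NPR3 rose by 2.94 and 2.54, while FMO1 and ALD1, which make the systemic signal N-hydroxypipecolic acid, were lower, FMO1 at -2.33 and ALD1 by at least 5.2-fold. FMO1 too had about 3 estimated reads or fewer in every SNP library.

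Glucosinolates are the sulfur-containing defence compounds of the cabbage family, made from methionine (aliphatic) or tryptophan (indole). Aliphatic genes were almost uniformly lower, with 12 of 13 tested down, 0 up and a median of -2.92. MYB28 (AT5G61420), their main regulator, had 99.7, 104.1 and 68.9 in SNP, against 720.3, 754.2 and 590.0 in Mock, a log2 fold change of -2.92 ± 0.171 (SE, adjusted p = 3.7e-07). CYP83A1 (AT4G13770), a core enzyme, had 21.5, 39.8 and 23 in SNP, against 1086, 935.9 and 768.7 in Mock, and the chain elongation gene MAM3 had -5.01. The indole and camalexin list was divided at 6 higher and 6 lower of 15. The indole regulator MYB34 (AT5G60890) had 9.23, 14.9 and 36.5 in SNP, against 668.1, 681.5 and 575.8 in Mock, and CYP83B1 and CYP79B2 had -4.34 and -3.59. In contrast CYP81F2 (AT5G57220), which modifies indole glucosinolates after synthesis, had 11410, 5764 and 9730 in SNP, against 279.1, 231.8 and 259.5 in Mock, and the myrosinase gene PEN2 rose by 2.197. The log2 fold changes of MYB34 and CYP81F2 were -5.13 ± 0.395 and 5.07 ± 0.216 (SE, adjusted p = 2.3e-06 and 4.7e-08).

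Phenolic pathways were mixed. Of 14 flavonoid and anthocyanin genes 7 rose and 2 fell, with a median of 0.45 that turns to -0.260 with each library divided by its summed signal. The late anthocyanin genes DFR and LDOX rose by 4.32 and 3.12 and their regulators TT8 and MYB75 by 2.70 and 1.69, while the chalcone synthase gene TT4, which overlaps another gene, was not called at 0.13 and the flavonol regulator MYB12 had -1.25. Of 17 phenylpropanoid and lignin genes 4 rose and 8 fell. HCT, PAL3 and FAH1 (AT4G36220) had -2.51, -2.44 and -2.11, and CAD5 rose by 1.58.

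Clock genes were displaced in opposite directions. The circadian clock is a loop in which the morning factors CCA1 and LHY repress evening genes such as TOC1, GI and ELF4 through the evening element, and those repress the morning genes in turn. Of 17 clock genes 8 rose and 6 fell, with a median of 0.16 that turns to -0.549 with each library divided by its summed signal. CCA1 (AT2G46830) had 8120, 9387 and 7858 in SNP, against 229.2, 196.9 and 185.2 in Mock, a log2 fold change of 5.37 ± 0.100 (SE, adjusted p = 3.7e-10). LHY (AT1G01060) had 821.1, 745.4 and 701.4 in SNP, against 31.9, 26.2 and 30.1 in Mock, a log2 fold change of 4.64 ± 0.129 (adjusted p = 3.4e-09). RVE8, RVE4, LNK1 and LNK2, which activate evening genes, rose by 3.56, 1.94, 1.88 and 1.75, the LNK genes with overlapping genes in the annotation. On the evening side TOC1 (AT5G61380) had 1398, 1001 and 1269 in SNP, against 2739, 2754 and 3120 in Mock, and ELF4 (AT2G40080) had 164.0, 122.6 and 144.0 in SNP, against 745.1, 714.5 and 741.7 in Mock. Their log2 fold changes were -1.24 ± 0.120 and -2.36 ± 0.116, GI had -1.81, and PRR3 (AT5G60100) was lowest at -3.80. PRR7, LUX and ELF3 were not called, at 0.16, -0.02 and -0.27, and LUX and ELF3 overlap other genes. The hour of harvest is not given in the sources used here, so a shift in phase and a change in level cannot be told apart. The evening element (AAATATCT, either strand) stood within 250 bases before the start of 5 of the 17 genes, against 4.94% of all stretches. It is shown in capitals for TOC1 at chr5:24674797-24674834 on the plus strand, ELF4 at chr2:16735171-16735203 on the minus strand, PRR5 at chr5:8358711-8358748 on the minus strand and LUX at chr3:17182957-17183012 on the plus strand, on the strand of each gene in TAIR10.1.
TOC1: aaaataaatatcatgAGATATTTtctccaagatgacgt
ELF4: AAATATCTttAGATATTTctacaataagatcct
PRR5: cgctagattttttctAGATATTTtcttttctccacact
LUX: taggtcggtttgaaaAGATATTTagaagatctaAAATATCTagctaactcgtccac
TOC1, ELF4 and PRR5 were lower in SNP, as was FKF1, the fifth gene with a match (-2.11, with an overlapping gene), while LUX was not called. ELF4, LUX and FKF1 held 2 matches each.

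**Figure D4:**
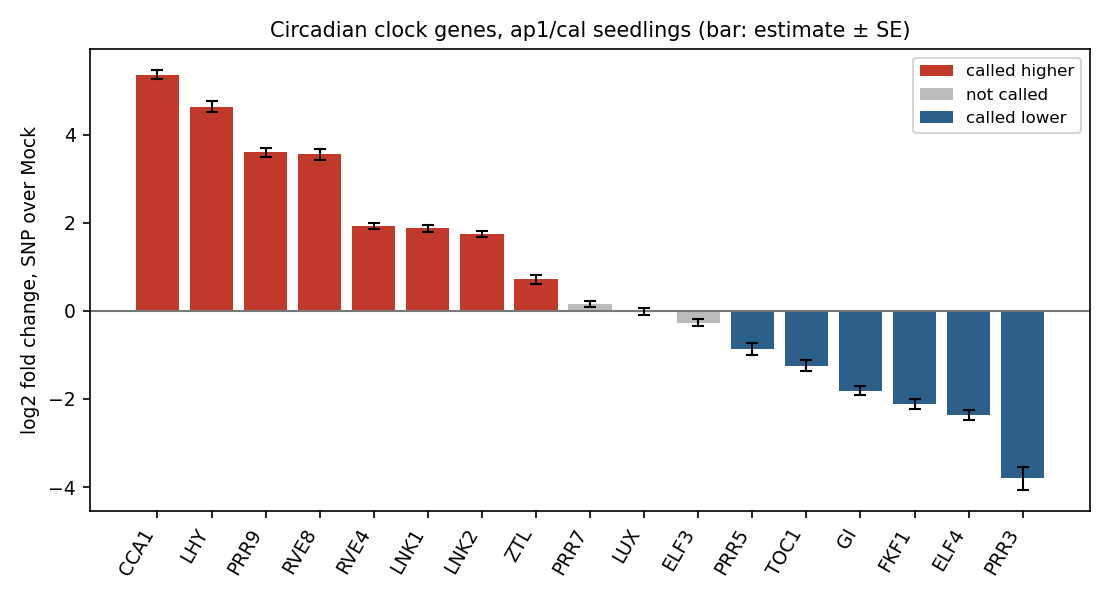
Log2 fold change of SNP over Mock (y axis) of 17 clock genes, ordered from the highest to the lowest, with the SE of the limma estimate as error bars. Red bars were called higher, blue bars lower and grey bars not called. The morning genes CCA1 and LHY stand at 5.37 and 4.64 and the evening genes TOC1, GI and ELF4 at -1.24, -1.81 and -2.36. The median of the list, 0.16, turns to -0.549 with each library divided by its summed signal.

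Transcription factor families held both rises and falls. Of 54 WRKY genes 23 rose and 17 fell, of 71 NAC genes 31 rose and 20 fell, and of 94 AP2/ERF genes 38 rose and 34 fell. These are 42.6, 43.7 and 40.4% higher, against 30.1% of all genes. The shares lower, 31.5, 28.2 and 36.2%, were near the 32.9% of all genes. The WRKY and NAC medians of 0.24 and 0.29 turn to -0.470 and -0.414 with each library divided by its summed signal, and that of AP2/ERF, 0.05, to -0.641. WRKY30, WRKY28, WRKY6 and WRKY25 rose by 7.32, 4.90, 4.75 and 4.74, and WRKY14 and WRKY60 had -3.87 and -3.23. NAC004, NAC032 and NAC053 rose by 6.40, 4.79 and 3.86. Among AP2/ERF genes ERF98 and DREB2C rose by 7.28 and 5.16 and DREB2A, which overlaps another gene, by 6.11, whereas the cold regulators CBF1 and CBF2 were lower, CBF1 by at least 11.8-fold and CBF2 at -3.13. Of 81 MYB genes 21 rose and 39 fell (median -0.65), led by MYB2 at 5.25 upwards and by MYB34 downwards.

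In the shoot meristem and the cell cycle, changes were smaller. Of 10 tested meristem and floral regulators 1 rose and 5 fell (median -0.58), and 11 further genes of the list did not pass the filter or are not listed. CLV1 (AT1G75820), the receptor kinase that limits the stem cell pool, had 279.9, 246.9 and 355.1 in SNP, against 1633, 1785 and 2220 in Mock, a log2 fold change of -2.68 ± 0.151 (SE, adjusted p = 2.9e-07). CLV2 had -1.80, the meristem gene KNAT1 -1.28 and the flowering integrator SOC1 -1.17, while STM, which keeps meristem cells undifferentiated, was not called at 0.08. Of 23 genes of DNA replication and the cell cycle 1 rose and 10 fell (median -0.46). All 6 subunits of the replicative helicase, MCM2 to MCM7, were lower, between -0.72 and -1.43, and the licensing factors CDC6 and CDT1A had -2.05 and -1.34, with an overlapping gene at CDC6. The mitotic genes CYCB1;1, KNOLLE and CDKB1;1 had 0.32, 0.30 and 0.06 and were not called, and KNOLLE and CDKB1;1 overlap other genes.

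Genes of several systems of protein turnover were more often higher than lower with the deposited scaling. Of 43 genes for 26S proteasome subunits 26 rose and 0 fell, with a median of 0.65 and members from -0.345 to 1.967. That median turns to -0.059, with 5 higher and 5 lower, when each library is divided by its summed signal. Of 25 ubiquitin-conjugating enzymes 18 rose and 1 fell (median 0.98). UBC11 (AT3G08690) had 12253, 14524 and 12849 in SNP, against 535.0, 535.5 and 537.5 in Mock, a log2 fold change of 4.62 ± 0.075 (SE, adjusted p = 2.1e-10). Of 10 SNF7 family genes, which act in the sorting of membrane proteins for degradation, 8 rose and 0 fell (median 1.08), and of 16 peroxins, which build peroxisomes, 10 rose and 2 fell (median 0.91). Of 10 MAP kinases 7 rose and 2 fell. MPK11 (AT1G01560), of the same group as the immune kinase MPK4, had 769.9, 543.4 and 700.4 in SNP, against 2.2, 3.47 and 6.75 in Mock, a log2 fold change of 7.11 ± 0.314 (adjusted p = 5.9e-08), while MPK6 and MPK4 rose by 1.197 and 1.59 with overlapping genes in the annotation. The ubiquitin-conjugating, SNF7, peroxin and MAP kinase families, like the laccases, 3-ketoacyl-CoA synthases and auxin response factors above and the families that follow, were picked after a scan of families by product name, so their direction is no independent evidence.

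Some of the largest families in the genome fell nearly throughout. Of 242 pentatricopeptide repeat genes, whose products edit and process organelle RNA, 205 fell and 10 rose (median -1.75, and -1.55 after the trend on gene length was removed). Of 150 genes for leucine-rich repeat receptor kinases 122 fell and 12 rose (median -1.65, and -1.25 after the same removal). Of 92 genes for C1 domain proteins 80 fell and 3 rose (median -2.85). The pentatricopeptide repeat genes held 0.0982 to 0.102% of the signal in SNP libraries, against 0.264 to 0.283% in Mock libraries, and the C1 domain genes 0.00862 to 0.00955% in SNP, against 0.0348 to 0.0399% in Mock. Many members of these families are expressed at low levels or resemble each other in sequence.

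The letters of several regulatory motifs were unevenly spread over the responding genes, taking the 250 bases before each gene start on both strands. The heat shock element stood in 1.93% of genes that rose at least 16-fold, 0.799% of those that rose and 0.24% of those that fell. Of the 88 genes with it 54.5% were called higher, against 29.8% of the genes without it. The mitochondrial dysfunction motif stood in 30 of 517 genes that rose at least 16-fold (5.8%) and in 0.769% of those that fell at least 16-fold. The W-box, the site of WRKY factors, counted as TTGACC or TTGACT, stood in 43.7% of genes that rose at least 16-fold, 33.6% of those that fell as much and 28.6% of all. The G-box (CACGTG), bound by bZIP and bHLH factors, stood in 12% of genes that rose at least 16-fold and 3.08% of those that fell as much, against 7.53% of all. The auxin response element (TGTCTC) ran the other way, with 8.7% of genes that rose at least 16-fold, 14.6% of those that fell as much and 10.6% of all. These are matches of letters and no test was made on them.

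**Figure D5:**
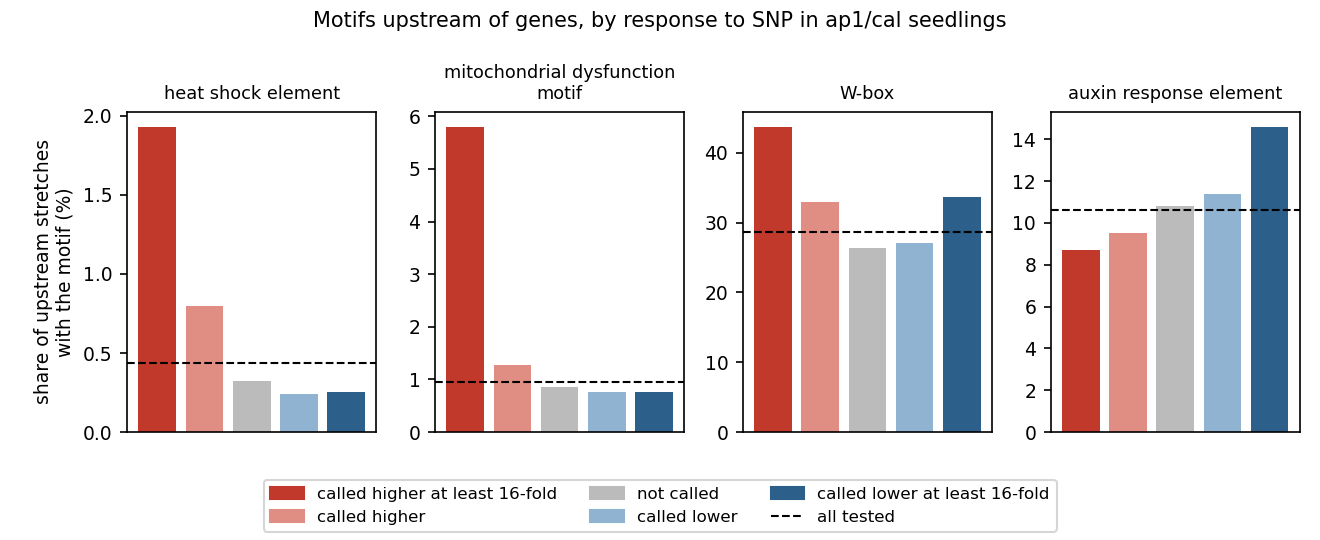
Share of upstream stretches of 250 bases (percent, y axes from 0, with a different scale in each panel) that hold the letters of 4 motifs, by the response of the gene to SNP. Bars run from genes that rose at least 16-fold on the left to genes that fell at least 16-fold on the right, and the dashed line is the share among all 20089 stretches. The heat shock element and the mitochondrial dysfunction motif were most frequent in the genes that rose at least 16-fold (1.93 and 5.8%), the auxin response element in those that fell at least 16-fold (14.6%).

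The response of ap1/cal was set against that of Col-0 as a difference of log2 fold changes, each taken within its own table. Of 20623 genes 3006 (14.6%) differed in limma at the same thresholds, which ask for an estimated difference of at least 1.5-fold. In a stricter test of whether the difference exceeded 1.5-fold, 338 were called. The small heat shock protein list had the clearest difference, where 15 of 16 genes had the higher response in ap1/cal and the median difference was 4.101, with medians of 11.17 in ap1/cal and 6.56 in Col-0. The larger chaperones followed with 21 of 23 and a median difference of 1.32. Root hair and extensin genes differed in the negative direction, 11 of 16 and 11 of 18 genes, with median differences of -1.76 and -2.07. A larger response in ap1/cal was not general. Of the WRKY genes 21 of 61 were more negative in ap1/cal and 3 more positive, with a median difference of -0.566. Their median response in Col-0 was 0.609, and WRKY33 rose by 3.80 in ap1/cal and by 5.32 in Col-0. Of the clock genes 5 of 17 differed, CCA1 among them. The aliphatic glucosinolate and SAUR lists were near or below the background at 2 of 14 and 3 of 63 genes. HB1 and BZIP60 had differences of -0.50 ± 0.292 and 0.01 ± 0.219 (SE, adjusted p = 0.237 and 0.978).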

How the data were processed

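Poly(A)-selected, strand-specific libraries of 3 SNP and 3 Mock samples of ap1/cal seedlings were sequenced. The submitters' processing notes name FastQC, STAR, DESeq2 and the TAIR10 build, while the study's methods name DEGseq for differential expression. The counting tool, and whether it used the strand, are not given in the sources used here. The deposited signal values, made by the authors, were taken to be reads per gene divided by a size factor per library. Between 66.8 and 70.1% of low values were whole multiples of the value of 1 read (tolerance 0.001), so the values were not treated as counts. Genes with a value of at least 10 in 3 of 6 libraries were fitted on log2(value + 1) with limma 3.58.1 in R 4.3.3, with empirical Bayes moderation and a mean-variance trend. On simulated data with 200 changed genes among 20225, 88 of 100 changed 2-fold and 100 of 100 changed 4-fold were recovered with 10 false calls. Far fewer genes changed there than the 63% called here, so the simulation cannot show how many calls rest on the scaling. The same thresholds were used for the difference from Col-0, in which all 12 libraries entered. Replicate numbers were shared between SNP and Mock, and libraries of the same number deviated together (r = 0.12, 0.114 and 0.176), so a fit with the number as a block was made as an alternative. Intervals cover the spread between these libraries only, and a group with at most 3 estimated reads in every library was given as a bound. The value of 1 read was rounded, so some groups at about 3 reads missed this rule, RHD6, RSL4 and FMO1 in SNP among them. Named genes were those mutated, the 15 largest rises and falls with a mean of at least 100, no overlap between groups and no shared sequence, the 10 most abundant per kb, the extremes of each list, and members on whose role a list turns. The members and lists were chosen with earlier results of these data known. Names, overlaps and upstream sequence came from the RefSeq annotation of TAIR10.1, which matched 20090 of the tested genes. Other scalings, pseudocounts, filters, thresholds and left-out replicates were tried. The value of 1 root marker is not reported here.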

Additional observations from a re-analysis of the deposited data

Results flagged for a closer look

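Among the genes with the largest changes, 27 responded to SNP in ap1/cal by another amount than in Col-0, by limma's test of the difference itself (ap1/cal minus Col-0, log2 scale, adjusted p below 0.05). All of them moved the same way in both genotypes, and the value given is the difference of the log2 fold changes. The genes were chosen for their large changes in ap1/cal, and the same values enter the difference. This choice favours a larger response in ap1/cal, so the shared direction of these differences is no independent evidence.

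The small heat shock protein genes rose more in ap1/cal. Their differences were 5.17 for HSP17.6A, 5.35 for HSP17.6II, 4.47 for HSP22.0, 4.86 for HSP23.6-MITO, 3.22 for AT1G52560, 5.81 for AT1G53540, 4.79 for AT1G07400 and 4.88 for HSP21. For AT1G53540 the log2 fold change was 11.41 in ap1/cal and 5.60 in Col-0, a difference with an SE of 0.556. Other genes that rose more were from several functions, with differences of 5.68 for ABCG40, 4.01 for HRE2, 4.35 for AOX1D, 2.96 for HSP70b, 3.85 for AT1G71000 and 5.585 for ELI3-2.

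The genes that fell more in ap1/cal were mainly of root hairs and cell walls. Their differences were -1.655 for AT5G62360, -3.05 for RHS13, -3.065 for RHS12, -2.22 for AT5G04960, -2.61 for LRX1, -2.77 for PRP3, -2.34 for EXT13 and -2.45 for EXT12. The receptor kinase genes AT2G28960 and AT5G49770 had -3.04 and -1.77, AT3G07070 had -2.07, AT1G52060 had -3.55 and the iron transporter gene IRT2 had -3.795. For several of these genes the treated libraries lie near 0 reads, where log2(value + 1) depends on the pseudocount. The genotypes were normalized in separate tables, and what sets the size of the difference was not tested.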

How the results depend on the processing

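The split of calls depended on the scaling. With each library divided by its summed signal, 14025 genes were called, 3078 higher and 10947 lower, against 6082 and 6659 with the deposited scaling, and 9737 calls were shared. With upper-quartile scaling 4170 were higher and 8871 lower. The medians of some lists turned negative, to -0.486 for nitric oxide and nitrate genes, -0.336 for carbon fixation, -0.323 for jasmonate, -0.260 for flavonoid and anthocyanin, -0.549 for the circadian clock, -0.059 for the 26S proteasome, -0.037 for UDP-glycosyltransferases, -0.470 for WRKY and -0.414 for NAC factors with the summed signal, and to -0.154 for nitric oxide and nitrate genes, -0.004 for carbon fixation, -0.217 for the clock, -0.139 for WRKY and -0.083 for NAC factors with the upper quartile. The single genes STM, NIR1 and CDKB1;1, near 0 with the deposited scaling, turned to -0.608, -0.675 and -0.643 with the summed signal. Pseudocounts of 0.5 and 5 gave 12737 and 12667 calls, no filter 13398, a filter of 50 11213, a test against 1.5-fold 9870, and a fit free of the trend on gene length and GC content 12096. The replicate block gave 12795 calls, of which 12711 were shared, and moved no count by over 1.5 times, also for the difference from Col-0 (3148 genes). Leaving out a replicate gave 12461 to 12774 calls, with 5972 to 6126 higher and 6489 to 6687 lower. No gene was called in the opposite direction under any of these settings. The difference from Col-0 was called for 3006 genes, for 338 when tested against 1.5-fold, and for 2381 to 3408 without a replicate. With each library divided by its summed signal it was called for 3676, so this count too depended on the scaling. Calls for genes of a few reads are limited by depth, and the cause of these shifts was not tested.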

Other observations

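Other large families, taken by their product name in the annotation, are given as counts only, and were picked after their values were seen. Of 201 RING/U-box genes, most of them ubiquitin ligases, 81 rose and 57 fell, and of 51 protein phosphatase 2C genes 21 rose and 13 fell. Genes for calcium-binding EF-hand proteins were higher in 19 of 35 cases and lower in 7, those for thioredoxin superfamily proteins higher in 21 of 43 and lower in 5, and those for DnaJ-domain chaperones higher in 24 of 49 and lower in 9. RNA-binding proteins with RRM motifs had 44 of 102 genes higher and 17 lower, with a median log2 fold change of 0.482.

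Falls outnumbered rises in 4 other families. Of 45 GDSL-like lipase genes 35 fell and 3 rose, of 52 pectin lyase-like genes 36 fell and 5 rose, of 47 eukaryotic aspartyl protease genes 29 fell and 8 rose, and of 37 nodulin MtN21-like transporter genes 24 fell and 1 rose. The alpha/beta-hydrolases, by contrast, were evenly divided at 50 higher and 50 lower of 159. Over all tested genes 30.1% were called higher and 32.9% lower.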
